A study of Mus musculus with 11 samples.

Results

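Oxidative phosphorylation is carried out by 5 protein complexes of the inner mitochondrial membrane, and the genes that encode them were followed here in group 2 innate lymphoid cells (ILC2s) of the mouse large intestine. The genes were taken by symbol: protein-coding genes starting with Ndufa, Ndufb, Ndufc, Ndufs, Ndufv, Uqcr, Cox4 to Cox8 or Atp5, the 4 genes Sdha to Sdhd, and the 13 protein genes of the mitochondrial genome. The prefix Ndufa also takes in the Ndufaf genes, which encode assembly factors of complex I. This rule gave 109 genes, of which 108 were in the count table of 27179 genes and 100 passed the filter on low counts that left 15028 genes for testing. They comprise 88 nuclear subunit genes (79 past the filter), 8 complex I assembly factors of the Ndufaf series (8 past it) and the 13 mitochondrial genes (13 past it). The ILC2s were sorted from the large intestine of WT C57BL/6 mice and cultured for 3 h, and IL-2 (100 ng/ml) and IL-7 (100 ng/ml) were present in every culture. ADM2 cultures (n = 3) also had 0.4 µg/ml ADM2, a neuropeptide related to CGRP. IL-25 plus ADM2 cultures (n = 2, replicates 2 and 3) had that dose of ADM2 together with 100 ng/ml of the epithelial cytokine IL-25. IL-25 cultures (n = 3) had IL-25 without ADM2, and vehicle cultures (n = 3) had neither. Whether replicates are separate mice, pools or cultures is not stated, so p-values measure the spread between these libraries, which may be technical.

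Complexes I and II pass electrons from NADH and succinate to coenzyme Q, complex III passes them on to cytochrome c, and complex IV reduces oxygen with them. Complexes I, III and IV pump protons, and complex V, the ATP synthase, uses the returning protons to make ATP. Subunits of complex II are all nuclear, while the other complexes mix nuclear subunits with subunits made inside the organelle from mitochondrial DNA, so that both genomes have to supply their parts.

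Total counts per library ran from 25809256 to 35445351. The ILC2 markers, including the cytokine genes Il5 and Il13, summed to 4660 to 23400 CPM (the count scaled to library size, here with TMM factors). Mast cell and basophil markers summed to at most 1.15 CPM, with Mcpt2 and Ms4a2 at 0 in every library, and erythroid markers to at most 1.62 CPM. Epithelial markers, nearly all Epcam, summed to 80.4 to 85.5 CPM in ADM2, 64.3 to 83.3 in IL-25 plus ADM2, 142 to 166 in IL-25 and 157 to 186 CPM in vehicle cultures. Krt20, Vil1, Muc2 and Car1, 4 of these 6 markers, were under 1 CPM. Markers listed for ILC3s, mostly Il22 and Kit, summed to 977 to 1060 CPM in ADM2, 2190 to 2380 in IL-25 plus ADM2, 1770 to 1810 in IL-25 and 615 to 718 CPM in vehicle cultures. Stromal and endothelial markers, mostly Pecam1, summed to 171 to 228 CPM in ADM2, 366 to 421 in IL-25 plus ADM2, 399 to 478 in IL-25 and 220 to 229 CPM in vehicle cultures. T cell markers, mostly Trbc1, summed to 268 to 307 CPM in ADM2, 267 to 310 in IL-25 plus ADM2, 142 to 172 in IL-25 and 214 to 252 CPM in vehicle cultures. Myeloid markers summed to 14.6 to 20.3 CPM in ADM2, 12.8 to 17.1 in IL-25 plus ADM2, 5.41 to 10.4 in IL-25 and 6.40 to 8.70 CPM in vehicle cultures, with Itgam, Csf1r, Adgre1, S100a8 and S100a9 under 1 CPM. Markers of NK cells and ILC1s summed to 41.9 to 46.0 CPM in ADM2, 54.6 to 60.5 in IL-25 plus ADM2, 40.3 to 48.6 in IL-25 and 33.0 to 36.0 CPM in vehicle cultures. B and plasma cell markers, nearly all Jchain, summed to 356 to 432 CPM in ADM2, 415 to 487 in IL-25 plus ADM2, 339 to 501 in IL-25 and 269 to 384 CPM in vehicle cultures. Their part in the results was not tested, and in such bulk RNA fewer cells of a type and less RNA per cell cannot be told apart.

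Few subunit genes of the respiratory chain were called after 3 h. With ADM2, 0 of 79 nuclear subunit genes and 0 of 13 mitochondrial genes were called against vehicle, where 14.8% of all genes tested were, 7.39% higher and 7.43% lower. Called means a p below 0.05 after Benjamini-Hochberg adjustment over all genes in edgeR's quasi-likelihood test. Calls depend on the spread between replicates, so a gene that is not called may still have changed. The median SD of log2 CPM within groups was 0.21 for the nuclear subunit genes and 0.23 for all genes tested. It was 0.15 for genes with a mean log2 CPM of 4 or more. More subunit genes, and more of all genes, were called with an offset for transcript length, given below. At an unadjusted p below 0.05 there were 6 nuclear genes and 1 mitochondrial gene, beside 3995 of all 15028 genes. DESeq2 and limma voom each called 1 nuclear gene, Cox7a2l. With IL-25, 8 nuclear subunit genes rose and 1 fell against vehicle, which is 11.4% of the 79, and 1 mitochondrial gene rose. Of all genes, 23.3% were called (13% higher and 10.4% lower). With IL-25 plus ADM2 against IL-25, 0 of the 79 and 0 of the 13 passed, beside 14.6% of all genes (6.53% higher and 8.10% lower). Unadjusted counts there were 4 nuclear and 0 mitochondrial genes, beside 4079 of all 15028 genes. Of the 79 and the 13, DESeq2 and limma voom again called Cox7a2l alone. With IL-25 plus ADM2 against vehicle, 5 nuclear genes rose and 0 fell, beside 20.2% of all genes (10.6% higher and 9.64% lower). Of the mitochondrial genes 0 were called there by edgeR and by limma voom, 1 by DESeq2 and 3 at an unadjusted p below 0.05. Over all 15028 genes, 4819 had such an unadjusted p. Leaving out 1 library moved the nuclear counts to between 3 and 13 for IL-25 and between 1 and 12 for both agents against vehicle, the highest without vehicle replicate 2 in both cases. For IL-25 the count was 3 without vehicle replicate 1, vehicle replicate 3 or IL-25 replicate 3, 4 without IL-25 replicate 1 and 5 without ADM2 replicate 3. For both agents it was 1 without replicate 3 of IL-25 plus ADM2, 2 without vehicle replicate 1 or vehicle replicate 3, and 3 without ADM2 replicate 2, ADM2 replicate 3 or IL-25 replicate 3. The difference between the ADM2 effect with and without IL-25 was called for 0 of the 100 genes, where 0.0333% of all genes were called. It was called for 0 of the nuclear subunit and mitochondrial genes by DESeq2, by limma voom and at an unadjusted p below 0.05 (1028 of all 15028 genes). The smallest p was that of Uqcrfs1, with a difference of -0.38 on the log2 scale (edgeR adjusted p = 0.72).

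Sizes were small in every comparison. Changes are given as log2 fold changes, with ± SE where tested. The median log2 fold change of the 79 nuclear genes was 0.03 with ADM2 against vehicle, 0.17 with IL-25 against vehicle, -0.03 with IL-25 plus ADM2 against IL-25 and 0.15 with both against vehicle. With 1 library left out these medians ran from -0.05 (without vehicle replicate 1) to 0.13 (without vehicle replicate 2) for ADM2 and from 0.06 to 0.27 (without the same libraries) for IL-25. For IL-25 plus ADM2 they ran from -0.19 to 0.08 against IL-25 and from -0.02 to 0.28 against vehicle, lowest without its replicate 3 and highest without its replicate 2. Over all genes tested the medians in the 4 comparisons were -0.01, 0.00, -0.01 and -0.02. Log2 fold changes under 0.5 in size were found for 76, 70, 76 and 71 of the 79 nuclear genes in these comparisons, in the same order. These are 96.2%, 88.6%, 96.2% and 89.9%, beside 68.2%, 61.5%, 63.8% and 59.0% of all genes tested. Among genes with a mean log2 CPM of 4 or more the shares were 83.7%, 75.9%, 80.6% and 75.4%. Comparisons against vehicle share the 3 vehicle libraries, and the IL-25 libraries stand in 2 comparisons, so values are not independent of one another. Scaling by upper-quartile factors turned the share of higher calls among all calls to 44.6% for IL-25 against vehicle (55.6% with TMM factors), where it left 5 nuclear calls. For IL-25 plus ADM2 against IL-25 that share was 57.4% with upper-quartile factors (44.6% with TMM factors), and the nuclear median there was 0.04 in place of -0.03.

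**Figure D1:**
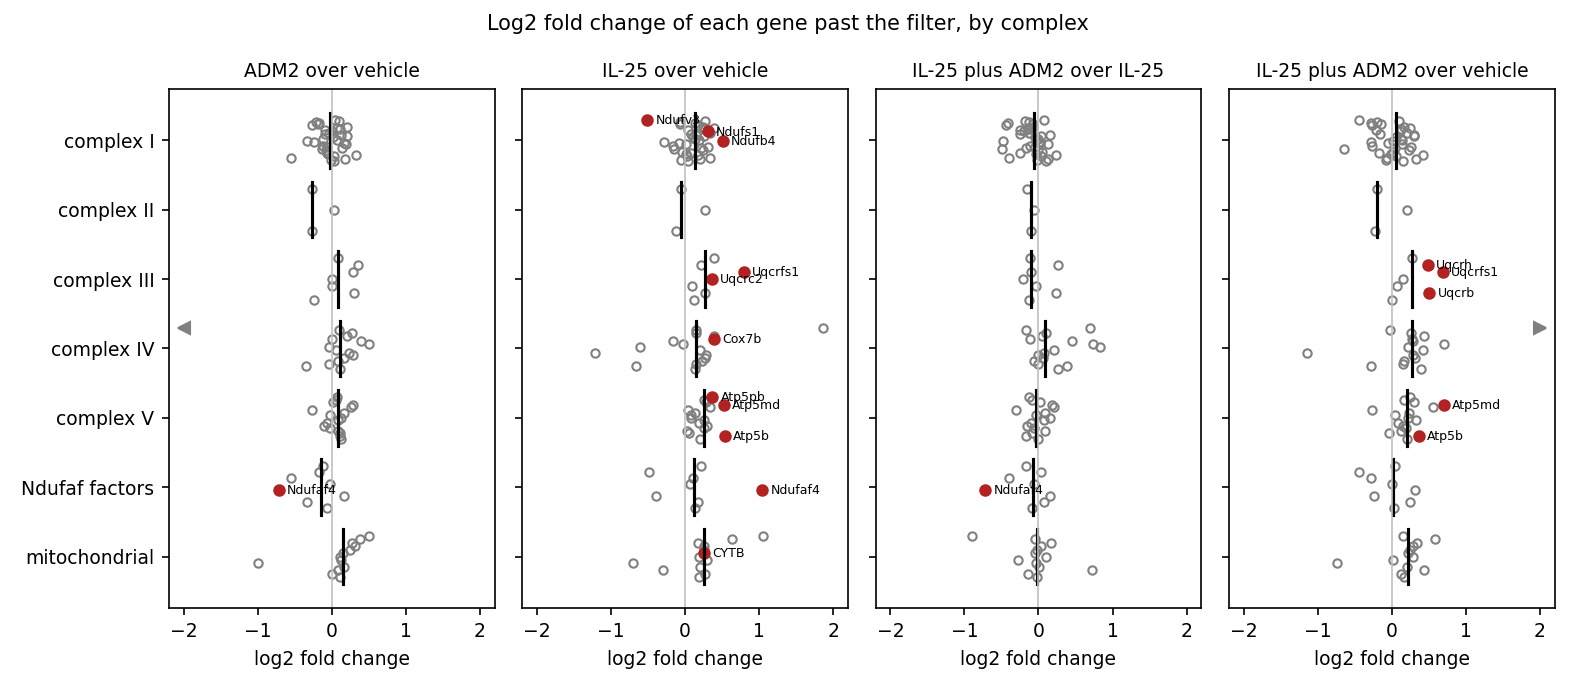
Log2 fold change of each of the 100 genes past the filter, one panel per comparison and one row per complex, with the Ndufaf assembly factors and the mitochondrial genes below. Filled red points are genes with an edgeR adjusted p below 0.05, open points the others, black bars the row medians, and triangles at the edge a gene beyond the axis (Ndufa4l2). The ADM2 panel and the panel of IL-25 plus ADM2 over IL-25 have 1 red point each, Ndufaf4.

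Complex I is the largest of the complexes, and 36 of its 39 nuclear genes passed the filter. Of these, 0 were called with ADM2, 2 higher and 1 lower with IL-25, 0 with IL-25 plus ADM2 against IL-25 and 0 with both against vehicle. Ndufs1, the large iron-sulfur subunit of the arm that takes electrons from NADH (chr1:63143592-63176822, mm10), had 95.7, 81.5 and 81.5 CPM in IL-25, against 67.4, 76.9 and 65.0 in vehicle cultures. All 3 IL-25 libraries lay above the vehicle libraries, a difference of 0.30 ± 0.10 (edgeR adjusted p = 0.0401), which was lost in 13 of the 21 alternative analyses. Ndufv1, the NADH-binding subunit of the same arm, had 63.8, 57.3 and 56.2 CPM in ADM2, 57.1 and 62.5 in IL-25 plus ADM2, 70.7, 61.7 and 64.0 in IL-25, and 63.6, 75.7 and 66.1 in vehicle cultures. Each pair compared overlapped except IL-25 plus ADM2, which lay below vehicle. The log2 fold changes were -0.21 with ADM2, -0.07 with IL-25 and -0.19 with both against vehicle (edgeR adjusted p = 0.219, 0.735 and 0.286).

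Ndufb4, an accessory subunit of the membrane arm, had 16.5, 14.0 and 15.7 CPM in ADM2, 17.5 and 22.1 in IL-25 plus ADM2, 29.9, 22.2 and 30.9 in IL-25, and 19.2, 23.1 and 16.2 in vehicle cultures. The IL-25 libraries were higher than vehicle by 0.50 ± 0.17 (edgeR adjusted p = 0.0415), but the lowest of them lay under the highest vehicle library, and the call was lost in 9 alternatives. Of the 150-base windows of its transcript, 29.3% also occur in a related gene, Ndufb4c. Ndufv3, a small accessory subunit beside Ndufv1, went the other way, at 33.5, 22.1 and 22.4 CPM in IL-25, against 32.9, 44.8 and 33.5 in vehicle cultures. This was a change of -0.51 ± 0.17 (edgeR adjusted p = 0.0371), with 1 IL-25 library within the range of the vehicle libraries, and leaving out vehicle replicate 2, or replicate 2 or 3 of IL-25, ended the call. Ndufs8, which holds iron-sulfur clusters near the coenzyme Q site, had one of the 2 smallest p-values with IL-25 plus ADM2 against IL-25 but did not pass, at 36.8 and 42.8 CPM in IL-25 plus ADM2, against 55.5, 54.1 and 49.8 in IL-25 cultures, or -0.42 ± 0.15 (edgeR adjusted p = 0.0806).

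Complex II, succinate dehydrogenase, is also an enzyme of the tricarboxylic acid cycle. Sdha, the flavoprotein that oxidises succinate, had 164, 139.5 and 203 CPM in ADM2, 174 and 171 in IL-25 plus ADM2, 143, 206 and 208 in IL-25, and 216, 217 and 175 in vehicle cultures. Sdhb, its iron-sulfur partner, had 117, 109 and 112 CPM in ADM2, 104 and 149 in IL-25 plus ADM2, 146, 116 and 134 in IL-25, and 97.5, 131 and 102 in vehicle cultures. Groups overlapped except for Sdha in IL-25 plus ADM2, which lay below vehicle, and the edgeR adjusted p of both genes was at least 0.214 in the 4 comparisons. Sdhc, a membrane anchor, differed by -0.26 ± 0.11 (edgeR adjusted p = 0.145) with ADM2 against vehicle, while Sdhd, the other anchor, had 38 counts in all 11 libraries together and was not tested.

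Complex III held the largest called change of any subunit gene. Uqcrfs1 encodes the Rieske iron-sulfur protein that hands electrons on towards cytochrome c (chr13:30540312-30545316, mm10). It had 189, 155 and 158 CPM in ADM2, 211 and 234 in IL-25 plus ADM2, 271, 217 and 228 in IL-25, and 123, 160.1 and 129.9 in vehicle cultures. All IL-25 and all IL-25 plus ADM2 libraries lay above every vehicle library. The difference was 0.79 ± 0.12 (edgeR adjusted p = 0.000254) for IL-25 against vehicle and 0.69 ± 0.14 (edgeR adjusted p = 0.002) for IL-25 plus ADM2 against vehicle. Both calls held in all 21 alternative analyses, with log2 fold changes of 0.68 to 0.88 for IL-25 and 0.61 to 0.81 for both. ADM2 alone gave 0.28 ± 0.12 (edgeR adjusted p = 0.154), not called, with 1 ADM2 library above all vehicle libraries.

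The other complex III genes had smaller differences. Uqcrc2, a core protein, rose with IL-25, at 206, 177 and 179.7 CPM in IL-25, against 138, 156 and 145 in vehicle cultures, or 0.36 ± 0.09 (edgeR adjusted p = 0.0109), with no overlap of these groups. Its call was lost without vehicle replicate 1 or 3, and 20.5% of its 150-base windows occur in an overlapping gene, Pdzd9. The partner core protein Uqcrc1 had 302, 251 and 284 CPM in ADM2, 275 and 308 in IL-25 plus ADM2, 268, 299 and 326 in IL-25, and 271, 311 and 254 in vehicle cultures, with overlapping groups and log2 fold changes within 0.10 of 0 in the 4 comparisons. Uqcrh, the hinge protein that contacts cytochrome c1, had 106 and 134 CPM in IL-25 plus ADM2, against 70.5, 104 and 81.8 in vehicle cultures, or 0.49 ± 0.16 (edgeR adjusted p = 0.0474). Uqcrb, a coenzyme Q-binding subunit, had 42.3 and 46.2 CPM in IL-25 plus ADM2, against 26.2, 39.9 and 27.2 in vehicle cultures, or 0.51 ± 0.17 (edgeR adjusted p = 0.0476). Neither pair of groups overlapped, but vehicle replicate 2 lay close below the treated libraries in both genes, and the calls were lost in 9 (Uqcrh) and 11 (Uqcrb) of the 21 alternatives. Uqcr11 had 0 counts in every library. The annotation used for counting is not given, so this cannot be read as absence of its transcript.

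Complex IV, cytochrome c oxidase, had 1 call among 16 nuclear genes past the filter, Cox7b with IL-25. This small accessory subunit had 67.5, 57.9 and 65.9 CPM in IL-25, against 43.8, 56.9 and 46.0 in vehicle cultures, a change of 0.38 ± 0.13 (edgeR adjusted p = 0.039) without overlap of the groups that was lost in 8 of the 21 alternatives. The regulatory subunit Cox4i1 and its neighbours Cox5a and Cox5b were called in no comparison. Cox4i1 had 261, 208 and 238 CPM in ADM2, 252 and 324 in IL-25 plus ADM2, 233, 232 and 258 in IL-25, and 196, 266 and 194 in vehicle cultures. Cox5a had 90.0, 70.3 and 76.8 CPM in ADM2, 77.1 and 102 in IL-25 plus ADM2, 94.1, 84.3 and 90.1 in IL-25, and 74.3, 96.4 and 71.9 in vehicle cultures. Cox5b had 85.6, 73.8 and 73.7 CPM in ADM2, 75.9 and 88.3 in IL-25 plus ADM2, 92.6, 82.1 and 82.4 in IL-25, and 69.0, 84.6 and 65.3 in vehicle cultures. All 3 genes had overlapping groups in each of the 4 comparisons, and the smallest edgeR adjusted p among them was 0.0735, for Cox4i1 with IL-25 plus ADM2 against vehicle (log2 fold change 0.40). Ndufa4, named for complex I but now counted as a complex IV subunit, had 80.0, 69.5 and 71.5 CPM in ADM2, 57.7 and 77.6 in IL-25 plus ADM2, 96.0, 63.4 and 68.0 in IL-25, and 69.4, 74.4 and 62.0 in vehicle cultures, with no comparison called.

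Cox7a2l was the subunit gene nearest to a call for ADM2, in cells without and with IL-25. Its protein, also known as SCAF1, links complexes III and IV into supercomplexes, and C57BL/6 mice are known to carry a shortened form of it. It had 124, 107 and 124 CPM in ADM2, 95.3 and 124 in IL-25 plus ADM2, 96.2, 71.5 and 73.5 in IL-25, and 82.0, 101 and 86.5 in vehicle cultures. All 3 ADM2 libraries were higher than the vehicle libraries, by 0.40 ± 0.14 (edgeR adjusted p = 0.0648). With IL-25 present the difference was 0.45 ± 0.15 (edgeR adjusted p = 0.061), and here replicate 2 of IL-25 plus ADM2 lay just under the highest IL-25 library. Cox7a2l passed in 6 and 8 of the 21 alternatives in these comparisons.

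Several complex IV subunits exist as paired isoforms, of which muscle or other tissues use the other form. In these ILC2s the general form was the higher one for most pairs, by mean CPM per kilobase of exon over all 11 libraries. Cox6a1 stood at 302 with Cox6a2 at 0 counts, Cox4i1 at 156 with Cox4i2 at 0.301, and Cox6b1 at 99.6 with Cox6b2 at 0.551 CPM per kilobase. Cox8a stood at 193, with 10 counts in all for Cox8b and 0 for Cox8c, and Ndufa4 at 52.0 with Ndufa4l2 at 0.180 CPM per kilobase. Both Cox7a forms were low, at 1.85 for the muscle form Cox7a1 and 0.479 for the general form Cox7a2, whose locus overlaps the annotated genes Tmem30a and Gm51685. Ndufa4l2 had 0.00, 0.00 and 0.00 CPM in ADM2, 0.00 and 0.998 in IL-25 plus ADM2, 0.657, 0.271 and 0.00 in IL-25, and 0.195, 0.0541 and 0.00 in vehicle cultures, levels too low to compare.

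Complex V, the ATP synthase, had 17 of 17 genes past the filter, and all 17 had positive log2 fold changes with IL-25 against vehicle, 3 of them called. Positive values there were also found for 7 of 7 nuclear genes of complex III and for 63 of all 79 nuclear subunit genes. Of the 7342 genes with a mean log2 CPM of 4 or more, 4319 were positive. The nuclear subunit genes moved together between replicates, so their signs are not independent of one another. This background is also not matched for transcript length. The 264 other genes of that level with transcripts under 1000 bases had a median log2 fold change of 0.21 with IL-25, beside 0.25 for complex V. The difference between these medians was not tested. Atp5b, the catalytic beta subunit (chr10:128083307-128090388, mm10), had 1108, 1031 and 1043 CPM in ADM2, 1176 and 1352 in IL-25 plus ADM2, 1548, 1275 and 1444 in IL-25, and 924, 1084 and 938 in vehicle cultures. The IL-25 libraries all exceeded the vehicle libraries, by 0.53 ± 0.09 (edgeR adjusted p = 0.00069), a call kept in all 21 alternatives. IL-25 plus ADM2 also exceeded vehicle, by 0.36 ± 0.10 (edgeR adjusted p = 0.0216), lost in 3 alternatives. Cultures with ADM2 alone had Atp5b levels that overlapped those of vehicle cultures. Atp5a1, the alpha subunit that alternates with beta in the catalytic head, had 785, 762 and 793 CPM in ADM2, 774 and 869 in IL-25 plus ADM2, 819, 820.3 and 829 in IL-25, and 657, 781 and 710.1 in vehicle cultures. It was called in none of the comparisons, although all IL-25 libraries lay above the vehicle libraries, by 0.20 ± 0.08 (edgeR adjusted p = 0.0966).

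Atp5md, a small membrane protein of ATP synthase dimers (chr19:47083471-47090647, mm10), had 69.8, 56.1 and 56.8 CPM in ADM2, 71.8 and 90.6 in IL-25 plus ADM2, 77.1, 61.0 and 77.4 in IL-25, and 41.2, 61.2 and 47.5 in vehicle cultures. The difference was 0.52 ± 0.15 (edgeR adjusted p = 0.023) for IL-25 and 0.70 ± 0.17 (edgeR adjusted p = 0.00872) for IL-25 plus ADM2 against vehicle, where the groups did not overlap. Leaving out replicate 1 or 3 of either group ended the IL-25 call, and leaving out replicate 3 of IL-25 plus ADM2 ended the other. Atp5pb, of the stalk that holds the head still, had 271, 206 and 215 CPM in IL-25, against 159, 200.2 and 178 in vehicle cultures. It rose by 0.37 ± 0.12 (edgeR adjusted p = 0.0409) without overlap, a call lost in 9 alternatives. The 3 genes of the rotating c ring make the same mature protein, and Atp5g3 led at 90.8 CPM per kilobase, with 41.5 for Atp5g2 and 11.4 for Atp5g1. None of these was called, and their log2 fold changes with IL-25 against vehicle were 0.26, 0.18 and 0.30 in that order. Atpif1, the inhibitor that blocks ATP hydrolysis by complex V and lies outside the symbol rule, had 14.8, 11.5 and 12.7 CPM in ADM2, 9.21 and 12.9 in IL-25 plus ADM2, 13.6, 12.1 and 10.4 in IL-25, and 13.6, 17.9 and 12.9 in vehicle cultures, with no comparison called.

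**Figure D2:**
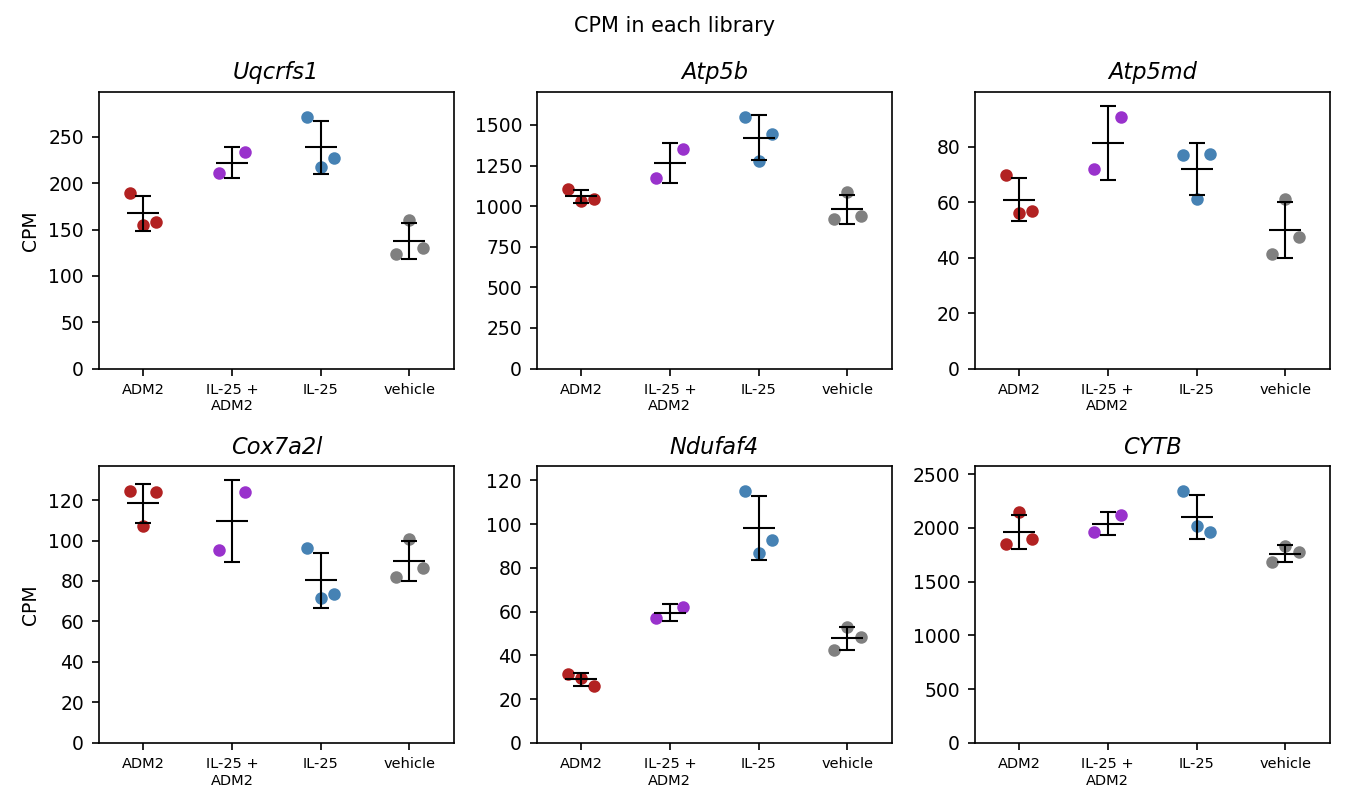
CPM in each library for 6 genes, with groups along the horizontal axis, points for libraries, and mean and SD (n = 3, and 2 for IL-25 plus ADM2). Uqcrfs1 and Atp5b are higher in both groups with IL-25 than in vehicle, and Ndufaf4 runs from 25.9 CPM in an ADM2 library to 115 in an IL-25 library.

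Ndufaf4 was the 1 gene of the set called for both agents, in opposite directions. It encodes a factor that helps to assemble the part of complex I that reaches into the matrix (chr4:24898083-24905001, mm10) and overlaps the predicted gene Gm46848. Its levels were 31.7, 29.8 and 25.9 CPM in ADM2, 56.9 and 62.2 in IL-25 plus ADM2, 115, 87.0 and 93.0 in IL-25, and 42.5, 52.8 and 48.2 in vehicle cultures. No ADM2 library reached a vehicle library, no vehicle library reached an IL-25 library, and the IL-25 plus ADM2 libraries fell between IL-25 and vehicle. The change was -0.72 ± 0.13 (edgeR adjusted p = 0.00122) for ADM2 against vehicle, 1.04 ± 0.13 (edgeR adjusted p = 3.41e-05) for IL-25 against vehicle and -0.72 ± 0.14 (edgeR adjusted p = 0.00308) for IL-25 plus ADM2 against IL-25. These 3 calls were kept in all 21 alternatives. The difference between the last and the first of these ADM2 effects was -0.01 on the log2 scale (edgeR adjusted p = 1), and both agents together gave 0.32 ± 0.14 (edgeR adjusted p = 0.135) against vehicle. The other 7 Ndufaf genes, among them Ndufaf1, Ndufaf2 and Ndufaf7, were called in none of the 4 comparisons.

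The promoters of 4 genes that these results turn on are shown because they hold motifs of factors known to act on respiratory genes. All but Ndufaf4 share the core of the cyclic AMP response element (CRE). Each is the window of 250 bases before to 50 bases after the annotated start from RefSeq (GRCm38.p6), 5′ to 3′ in the direction of the gene, with capitals marking matches on either strand to the searched motifs.
Uqcrfs1 (chr13:30545267-30545566, minus strand; capitals: CRE, which holds the CRE core): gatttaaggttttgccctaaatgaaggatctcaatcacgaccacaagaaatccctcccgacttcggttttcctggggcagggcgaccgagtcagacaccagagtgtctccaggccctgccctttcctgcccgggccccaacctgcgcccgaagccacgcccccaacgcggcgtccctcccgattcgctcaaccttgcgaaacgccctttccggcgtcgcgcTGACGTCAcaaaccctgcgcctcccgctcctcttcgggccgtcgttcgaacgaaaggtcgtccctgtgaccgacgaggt
Atp5b (chr10:128083057-128083356, plus strand; capitals: both CRE cores and, near the end, YY1): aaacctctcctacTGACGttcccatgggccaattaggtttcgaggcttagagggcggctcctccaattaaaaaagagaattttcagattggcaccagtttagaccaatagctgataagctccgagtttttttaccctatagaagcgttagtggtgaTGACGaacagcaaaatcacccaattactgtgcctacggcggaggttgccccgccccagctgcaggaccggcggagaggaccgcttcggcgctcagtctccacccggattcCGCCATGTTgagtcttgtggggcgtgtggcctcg
Atp5md (chr19:47090598-47090897, minus strand; capitals: both CRE cores and, near the end, ETS): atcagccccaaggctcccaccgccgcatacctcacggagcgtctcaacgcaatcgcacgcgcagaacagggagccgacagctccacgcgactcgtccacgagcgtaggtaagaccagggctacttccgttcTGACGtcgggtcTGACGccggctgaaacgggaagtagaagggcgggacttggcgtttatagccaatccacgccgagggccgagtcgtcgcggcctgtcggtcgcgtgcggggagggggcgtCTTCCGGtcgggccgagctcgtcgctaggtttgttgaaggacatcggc
Ndufaf4 (chr4:24897833-24898132, plus strand; capitals: NRF1, matched on both strands): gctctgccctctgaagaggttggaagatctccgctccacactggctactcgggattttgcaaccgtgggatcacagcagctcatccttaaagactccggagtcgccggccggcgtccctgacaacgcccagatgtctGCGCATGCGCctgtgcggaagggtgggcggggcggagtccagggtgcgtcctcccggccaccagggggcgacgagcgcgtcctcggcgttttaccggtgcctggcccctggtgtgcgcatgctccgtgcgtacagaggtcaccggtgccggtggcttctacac

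The motifs searched were GCGCANGCG for NRF1, CCGGAAG for ETS factors including GABPA, AANATGGCG for YY1, CACGTG for the E-box, TGACGTCA for the cyclic AMP response element (CRE) and TGACG for the CRE core, which every CRE also holds. A window was found for 71 of the 88 nuclear subunit genes and for 27025 genes in all. NRF1 matched in 20 of the 71 (28.2%) and in 6.35% of all windows, ETS in 17 (23.9%) and 9.08%, and YY1 in 9 (12.7%) and 2.51%. The CRE matched in 4 (5.63%) and 1.78%, the CRE core in 26 (36.6%) and 20.7%, and the E-box in 6 (8.45%) and 7.09%. Mean GC content was 57.1% in the subunit windows and 53.6% in all windows, so these shares compare windows of differing base composition. The CRE of Uqcrfs1 begins 29 bases before the annotated start, and the NRF1 match of Ndufaf4 113 bases before it. A match is a description of these letters only.

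The 13 mitochondrial genes held 1.15% to 1.45% of all counts per library, against 0.650% to 0.820% for the 87 nuclear subunit genes in the table. They split into 7 genes with ample counts and 6 with nearly none. COX1 (mt-Co1), the catalytic subunit of complex IV, led with 5321, 6398 and 5447 CPM in ADM2, 5582 and 5773 in IL-25 plus ADM2, 6575, 5483 and 5150.0 in IL-25, and 4645, 4901 and 4873 in vehicle cultures. CYTB (mt-Cytb), the subunit of complex III that binds coenzyme Q, had 1853, 2146 and 1895 CPM in ADM2, 1963 and 2116 in IL-25 plus ADM2, 2339, 2015 and 1958 in IL-25, and 1680.0, 1829 and 1773 in vehicle cultures. Per kilobase of exon, COX1 stood at 3539, ND1 at 1736, CYTB at 1714, ND2 at 1109, ND6 at 688, ND5 at 672 and ND4 at 618 CPM, the ND genes being subunits of complex I. The highest nuclear subunit gene, Cox6a1, stood at 302 CPM per kilobase. COX2, a further core subunit of complex IV, stood at 9.47, ND3 at 7.49, COX3 at 3.97, ATP6 at 3.62, ATP8 at 1.85 and ND4L at 1.20 CPM per kilobase.

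These 6 genes lie next to one another, but for tRNA genes, on the mitochondrial genome, from COX2 (chrMT:7013-7696) to ND4L (chrMT:9877-10173). A nuclear copy of the stretch is annotated on chromosome 1 (mm10) as a row of pseudogenes between bases 24611535 and 24616197. Aligned without gaps, 681 of 681 bases of the pseudogene Gm28661 equal COX2, 678 of 678 of Gm10925 equal ATP6, 783 of 783 of Gm28437 equal COX3 and 294 of 294 of Gm10222 equal ND4L, and Gm28438 differs from ND3 in 1 of 345 bases. Of the 150-base windows of each gene, 99.4% (COX2), 99.4% (ATP6), 99.8% (COX3), 97.0% (ND3) and 98.0% (ND4L) occur unchanged in these pseudogenes, against 59.2% for ND4, 23.6% for COX1 and 0 for ND1, ND2, ND5, ND6 and CYTB. ATP8 had no shared window in the annotation, but it is 204 bases long and overlaps ATP6. The labels do not give how reads with more than 1 place in the genome were counted. So the levels of these 6 genes cannot be read as transcript abundance. The levels of ND4 and COX1, which share part of their windows with the copy, are uncertain too. The part of the copy was not tested.

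**Figure D3:**
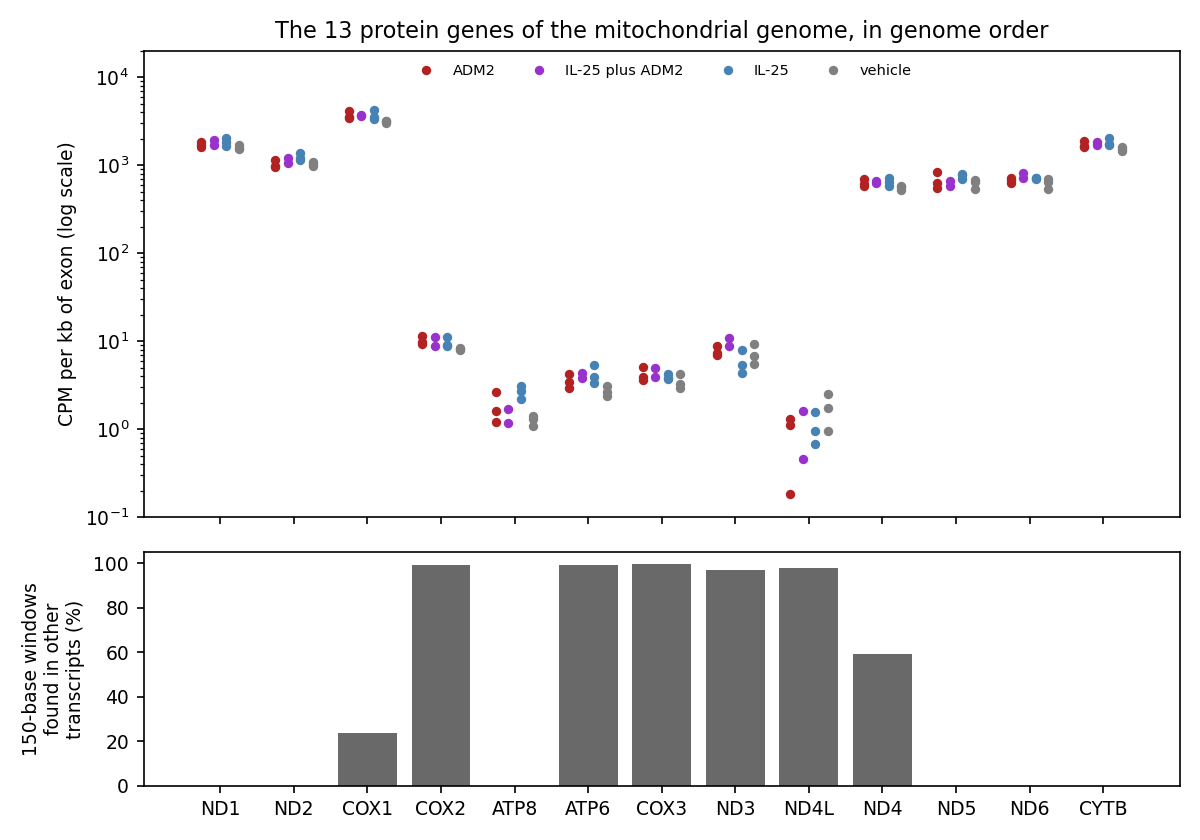
Top: CPM per kilobase of exon (log scale) of the 13 mitochondrial protein genes in genome order, each point a library coloured by group. Bottom: share of each gene's 150-base windows that occur unchanged in other annotated transcripts. COX2 to ND4L stand below 20 CPM per kilobase, and all of them except ATP8 share over 90% of their windows.

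Between groups the mitochondrial genes differed little. CYTB rose with IL-25 against vehicle by 0.26 ± 0.09 (edgeR adjusted p = 0.041), with no overlap between these libraries, but the call was lost in 12 of the 21 alternatives. COX1 differed by 0.26 ± 0.09 (edgeR adjusted p = 0.0529) with IL-25 and by 0.25 ± 0.09 (edgeR adjusted p = 0.0778) with ADM2 against vehicle, and in both cases all treated libraries lay above all vehicle libraries without passing the threshold. ND1, ND2, ND4, ND5 and ND6 had log2 fold changes of 0.19, 0.27, 0.21, 0.30 and 0.19 with IL-25 against vehicle and of 0.11, 0.00, 0.17, 0.13 and 0.12 with ADM2. The 6 low genes had group means of at most 6.96 CPM and the smallest edgeR adjusted p among them in any of the 4 comparisons was 0.218. Medians over the 13 genes were 0.16 with ADM2, 0.25 with IL-25 and 0.21 with both against vehicle, and -0.02 with both against IL-25. They exceeded the nuclear medians by 0.12, 0.08, 0.06 and 0.01 in that order, and by 0.09, 0.08, 0.06 and 0.01 with the 7 well covered genes alone. With 1 library left out the excess ran from 0.0023 (without ADM2 replicate 2) to 0.22 (without ADM2 replicate 1) for ADM2, and from -0.03 (without vehicle replicate 2) to 0.12 (without vehicle replicate 1) for IL-25. For both agents it ran from -0.02 (without vehicle replicate 2) to 0.18 (without replicate 3 of IL-25 plus ADM2) against vehicle, and from -0.08 to 0.09 (without replicate 2 or 3 of IL-25 plus ADM2) against IL-25. The excess thus depended on single libraries and was not tested.

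The nuclear subunit genes moved together between replicates of a group. The median deviation of the 79 genes from their own means (log2 CPM with 0.5 added) was 0.08, -0.13 and -0.06 in ADM2, -0.07 and 0.20 in IL-25 plus ADM2, 0.28, -0.05 and 0.08 in IL-25 and -0.17, 0.12 and -0.20 in vehicle libraries. Within a group this median had a pooled SD of 0.160. Vehicle replicate 2 had 70 of the 79 genes above their own mean, where vehicle replicates 1 and 3 had 13 each, and IL-25 replicate 1 had 68. All 5 complexes took part, with complex II, of 3 genes, the least regular.

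Transcript length went with this shared movement. The nuclear subunit genes have short transcripts, with a median of 875 bases and 46 of 79 under 1000 bases, where all tested genes with a known length had a median of 3123 bases. Other genes with a mean log2 CPM of 4 or more and transcripts under 1000 bases (264 genes, none of them in the set) had median deviations of 0.11, -0.13 and -0.07 in ADM2, -0.07 and 0.24 in IL-25 plus ADM2, 0.24, -0.08 and 0.10 in IL-25 and -0.23, 0.11 and -0.22 in vehicle libraries. These lay within 0.06 of the nuclear subunit medians in every library. For 2681 other genes with transcripts of 4000 bases or more they were -0.06, 0.10 and 0.01 in ADM2, 0.01 and -0.11 in IL-25 plus ADM2, -0.04, 0.10 and 0.02 in IL-25 and 0.06, -0.09 and 0.03 in vehicle libraries. The short other genes had median log2 fold changes of 0.07 with ADM2, 0.21 with IL-25 and 0.17 with both against vehicle, beside 0.03, 0.17 and 0.15 for the subunit genes. RNA quality values are not given in the labels, and the part of transcript length in the results was not tested.

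A fit with an offset for transcript length, chosen after these values were seen, brought the nuclear subunit genes closer between replicates, but not the mitochondrial genes. The pooled SD of the library median was 0.0486 with the offset, against 0.160 without it, for the nuclear genes, and 0.142 with it, against 0.105 without it, for the 7 well covered mitochondrial genes. With the offset 5 nuclear subunit genes were called with ADM2, 14 with IL-25 and 10 with both against vehicle. With both against IL-25 there were 4. Calls over all 15028 genes also rose with the offset. In the same order they were 2770, 4101, 3649 and 2737, against 2227, 3503, 3042 and 2199 without it. The 5 subunit genes with ADM2 were Cox7a2l, at 0.41 ± 0.10 (edgeR adjusted p = 0.00624), Uqcrh, Uqcrfs1, Ndufa2 and Cox8a, all higher. For IL-25 plus ADM2 against IL-25 the 4 were Cox7a2l, higher by 0.45 ± 0.11, and Ndufs6, Ndufs8 and Ndufb4, lower, all of complex I. With IL-25 against vehicle, Uqcrfs1 kept 0.79 ± 0.08 (edgeR adjusted p = 5.84e-06), Atp5b 0.55 ± 0.07 (adjusted p = 1.63e-05) and Ndufaf4 1.08 ± 0.13 (adjusted p = 1.59e-05). Atp5a1 was called there too, at 0.23 ± 0.06 (edgeR adjusted p = 0.0149), and CYTB was not (0.22 ± 0.09, edgeR adjusted p = 0.098).

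**Figure D4:**
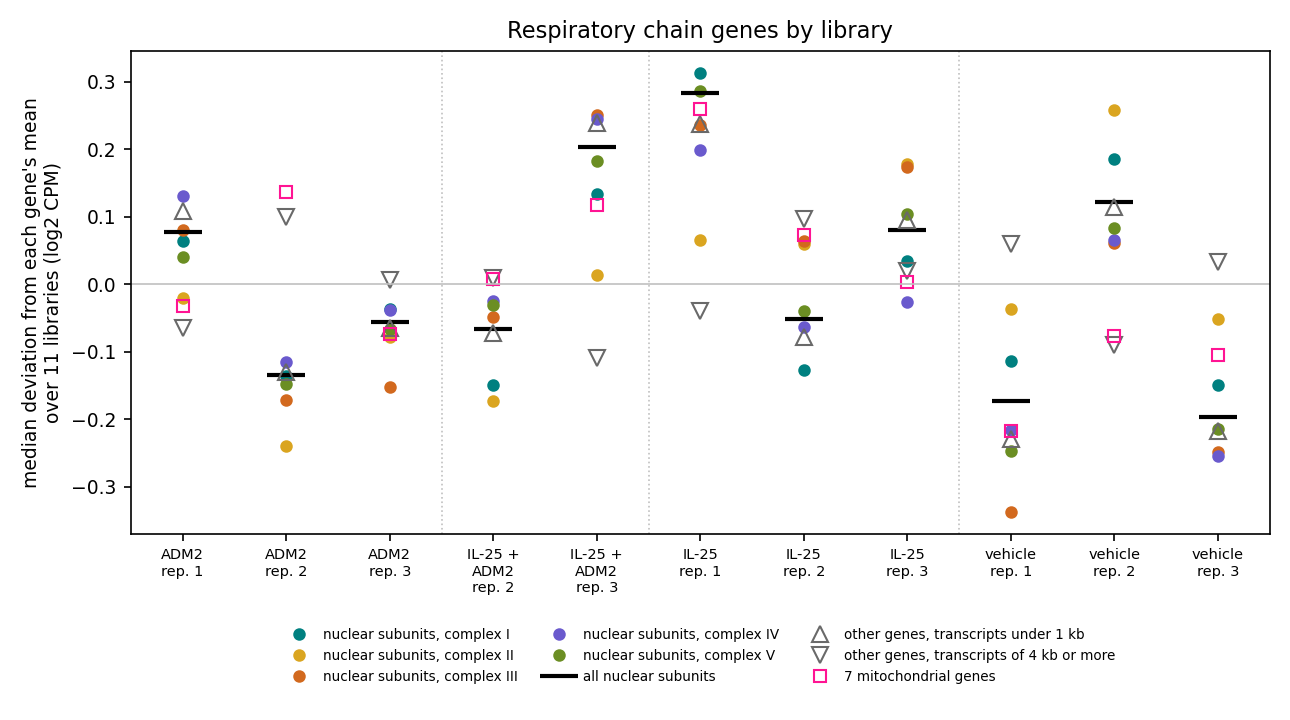
Median deviation of gene groups from their own means (log2 CPM) in each of the 11 libraries: nuclear subunits by complex (filled points) and together (black bars), 7 well covered mitochondrial genes (squares), and other genes with short (upward triangles) or long transcripts (downward triangles). The black bars follow the upward triangles, at 0.12 in vehicle replicate 2 against -0.17 and -0.20 in the other vehicle libraries.

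Genes around the respiratory chain were read from 7 lists of 192 genes outside the set, of which 188 were tested. The lists were chosen with earlier results of these data known, so their shares of calls are not independent of those results. With ADM2 against vehicle 9 rose and 32 fell (21.8%), and with IL-25 48 rose and 10 fell (30.9%). With IL-25 plus ADM2 against IL-25, 6 rose and 34 fell (21.3%), and with both against vehicle 14 rose and 16 fell (16.0%). These shares stand beside 14.8%, 23.3%, 14.6% and 20.2% of all genes tested. Among the 7342 genes with a mean log2 CPM of 4 or more, 24.6%, 38.3%, 24.6% and 32.4% were called. The share of the 7 lists together was below this second background in each comparison. Both backgrounds hold for each list below. The list of mitochondrial chaperones and proteases, which fold and clear imported proteins, had the largest shares of calls among the lists in the first 3 of these comparisons. Of 20 tested, 1 rose and 8 fell with ADM2, 12 rose and 0 fell with IL-25, and 0 rose and 11 fell with both against IL-25. Its median log2 fold changes were -0.33, 0.48 and -0.42, and 0.00 with both against vehicle, where 2 rose and 2 fell. The first 3 of these medians kept their sign in all 21 alternatives, while the counts moved. The list had 5 to 10 lower calls with ADM2 (5 without ADM2 replicate 2), 7 to 14 higher with IL-25 (7 without vehicle replicate 1), and 2 to 13 lower with both against IL-25. This last count was 2 without replicate 2 of IL-25 plus ADM2 and 7 without its replicate 3 or without IL-25 replicate 3. With both against vehicle, 2 rose and 0 fell without vehicle replicate 3, and 1 rose and 0 fell without replicate 3 of IL-25 plus ADM2.

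Hspd1, the matrix chaperonin HSP60, had 170.4, 148 and 191 CPM in ADM2, 317 and 349 in IL-25 plus ADM2, 461, 556 and 579.8 in IL-25, and 287, 338 and 258 in vehicle cultures. No ADM2 library reached a vehicle library and no vehicle library an IL-25 library, with changes of -0.79 ± 0.12 (edgeR adjusted p = 0.000371) for ADM2 against vehicle, 0.86 ± 0.12 (edgeR adjusted p = 0.000133) for IL-25 against vehicle and -0.68 ± 0.14 (edgeR adjusted p = 0.00388) for IL-25 plus ADM2 against IL-25, the last lost without replicate 2 of IL-25 plus ADM2. Hspa9, the import motor mortalin, had 307, 292 and 299 CPM in ADM2, 477 and 474 in IL-25 plus ADM2, 712, 693 and 708 in IL-25, and 392, 431 and 393 in vehicle cultures, and its log2 fold changes in the same comparisons were -0.44, 0.80 and -0.57, all called. The inner membrane scaffold Phb differed by -0.88, 0.75 and -0.93, again all called. Atf4, a transcription factor of stress responses that stands in the same list, rose with ADM2 (0.38), with IL-25 (0.60) and with both against vehicle (0.72).

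RNA handling and translation inside mitochondria had 1 of 33 genes higher and 7 lower with ADM2, and 13 higher and 2 lower with IL-25. With both agents 0 were higher and 7 lower against IL-25, and 3 higher and 4 lower against vehicle. These are 24.2%, 45.5%, 21.2% and 21.2% of the list, beside 14.8%, 23.3%, 14.6% and 20.2% of all genes. Among genes with a mean log2 CPM of 4 or more the shares were 24.6%, 38.3%, 24.6% and 32.4%, so only the IL-25 share lay above both. Across the alternatives there were 4 to 9 lower with ADM2 (4 without ADM2 replicate 1), 11 to 13 higher with IL-25, and 3 to 10 lower with both against IL-25 (3 without replicate 2 of IL-25 plus ADM2). With both against vehicle 2 rose and 2 fell without vehicle replicate 1 or without replicate 3 of IL-25 plus ADM2, and 2 rose and 1 fell without its replicate 2. Elac2, which cuts tRNAs out of mitochondrial transcripts, had 39.3, 42.4 and 39.9 CPM in ADM2, 74.7 and 63.9 in IL-25 plus ADM2, 119, 123 and 129 in IL-25, and 75.7, 71.7 and 70.9 in vehicle cultures. ADM2 and IL-25 lay on either side of vehicle without overlap, at -0.84 ± 0.10 (edgeR adjusted p = 1.87e-05) for ADM2 and 0.77 ± 0.09 (edgeR adjusted p = 3.45e-05) for IL-25 against vehicle. Lrpprc, which stabilises mitochondrial mRNAs, changed by -0.75 with ADM2 and 0.44 with IL-25 against vehicle, and by -0.83 with both against IL-25. The 7 mitochondrial mRNAs with ample counts had no call with ADM2, and their log2 fold changes there ran from 0.00 (ND2) to 0.25 (COX1).

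Among 25 regulators of mitochondrial biogenesis, 0 rose and 5 fell with ADM2, 4 rose and 1 fell with IL-25, 1 rose and 2 fell with both against IL-25, and 2 rose and 0 fell with both against vehicle. These shares of 20.0%, 20.0%, 12% and 8% stand beside 14.8%, 23.3%, 14.6% and 20.2% of all genes. All of them lay below the 24.6%, 38.3%, 24.6% and 32.4% of genes with a mean log2 CPM of 4 or more. The 5 lower calls with ADM2 became 3 without vehicle replicate 1 or 3, without any 1 ADM2 library or without either library of IL-25 plus ADM2. The 5 calls with IL-25 became 3 without any 1 vehicle library or without IL-25 replicate 2 or 3. With both against IL-25 the 3 calls became 1 without replicate 2 of IL-25 plus ADM2 and 0 without its replicate 3. Pprc1, a coactivator of the PGC-1 family, had 83.3, 99.1 and 93.2 CPM in ADM2, 194 and 160.1 in IL-25 plus ADM2, 216, 336 and 271 in IL-25, and 195, 142 and 201 in vehicle cultures. All ADM2 libraries were below and all IL-25 libraries above the vehicle libraries. Its change was -0.97 ± 0.16 (edgeR adjusted p = 0.000635) with ADM2 and 0.61 ± 0.16 (edgeR adjusted p = 0.011) with IL-25 against vehicle, the second lost when either vehicle replicate 2 or IL-25 replicate 2 was left out. Twnk, the helicase that copies mitochondrial DNA, fell by 1.01 on the log2 scale with ADM2, Top1mt, its topoisomerase, by 1.06, both in all 21 alternatives. The other 2 calls were near the threshold: the coactivator Ppargc1b at -1.05 ± 0.33 (edgeR adjusted p = 0.0477), lost in 11 of the 21 alternatives, and the RNA polymerase Polrmt at -0.47 ± 0.15 (edgeR adjusted p = 0.0488). With IL-25 the GABP subunit Gabpb1 rose by 0.69 and the transcription factor Tfb2m by 0.52. Gabpa, the other GABP subunit, was near the threshold at 0.30 ± 0.10 (edgeR adjusted p = 0.0408), and the call of Mterf2, which was lower with an adjusted p of 0.0393 in edgeR, was lost in 6 alternatives. Nrf1, Yy1 and Esrra, which act on promoters of subunit genes, had log2 fold changes of 0.14, 0.09 and -0.16 with IL-25 and were called in none of the comparisons. Tfam, which packages and transcribes mitochondrial DNA, had -0.34 ± 0.12 (edgeR adjusted p = 0.0806) with ADM2.

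Factors that assemble the respiratory complexes, 38 tested, had 0 higher and 6 lower calls with ADM2, 3 and 2 with IL-25, 0 and 5 with both against IL-25, and 0 and 2 with both against vehicle. These are 15.8%, 13.2%, 13.2% and 5.26% of the list, near or below the 14.8%, 23.3%, 14.6% and 20.2% of all genes. Across the alternatives the lower calls ran from 4 to 7 with ADM2, from 0 to 7 with both against IL-25 (0 without replicate 2 of IL-25 plus ADM2, and 3 without vehicle replicate 1, vehicle replicate 3, ADM2 replicate 3 or IL-25 replicate 3) and from 1 to 7 with both against vehicle. With both against vehicle 1 fell without vehicle replicate 1, vehicle replicate 3, ADM2 replicate 1 or replicate 2 of IL-25 plus ADM2, and 4 fell without IL-25 replicate 1. With IL-25 the 3 higher and 2 lower calls ran from 1 to 3 and from 0 to 3, with 1 and 1 without vehicle replicate 3, 1 and 2 without vehicle replicate 1, 2 and 0 without IL-25 replicate 1 or 2, and 3 and 0 without vehicle replicate 2. Cox10, which makes the heme of complex IV, had 51.6, 45.1 and 49.4 CPM in ADM2, 46.6 and 53.5 in IL-25 plus ADM2, 66.0, 82.8 and 91.3 in IL-25, and 86.9, 86.3 and 86.0 in vehicle cultures. Both groups with ADM2 lay below the groups without it, a change of -0.83 ± 0.12 (edgeR adjusted p = 0.000182) with ADM2 against vehicle and of -0.68 ± 0.14 (edgeR adjusted p = 0.00302) with both against IL-25, the second lost without replicate 2 of IL-25 plus ADM2. Uqcc2, a complex III assembly factor, changed by -0.70 and Ecsit, of complex I, by -0.57 with ADM2 against vehicle. The median of this list with IL-25 against vehicle was 0.02 and changed sign between alternatives.

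Carriers of electrons were called in both directions, with 3 of 23 genes higher and 2 lower for ADM2, 6 and 1 for IL-25, 2 and 5 for both against IL-25, and 2 and 2 for both against vehicle. These shares of 21.7%, 30.4%, 30.4% and 17.4% stand beside 14.8%, 23.3%, 14.6% and 20.2% of all genes. Among genes with a mean log2 CPM of 4 or more the shares were 24.6%, 38.3%, 24.6% and 32.4%. Across the alternatives 0 to 6 were lower with both against IL-25 and 3 to 9 higher with IL-25. With both against IL-25, 2 rose and 0 fell without replicate 2 of IL-25 plus ADM2, and 0 rose and 4 fell without its replicate 3. With IL-25, 3 rose without any 1 vehicle library or without IL-25 replicate 3. With ADM2, 2 rose and 1 fell without vehicle replicate 3 or ADM2 replicate 2. Cycs, cytochrome c itself, rose with IL-25 by 0.68 ± 0.12 (edgeR adjusted p = 0.000735) against vehicle, at 178, 140.5 and 166 CPM in IL-25, against 91.1, 114 and 95.9 in vehicle cultures. Cyc1, the cytochrome c1 subunit of complex III, which the symbol rule leaves out, rose with IL-25 by 0.40 ± 0.09 (edgeR adjusted p = 0.00444), and Hccs, which attaches heme to both, by 0.84 ± 0.10 (edgeR adjusted p = 3.75e-05). Dhodh, which feeds electrons from pyrimidine synthesis into coenzyme Q, had 9.93, 7.89 and 7.68 CPM in ADM2, 8.76 and 10.8 in IL-25 plus ADM2, 16.8, 19.3 and 16.4 in IL-25, and 18.6, 19.2 and 20.6 in vehicle cultures. Here too both groups with ADM2 lay below those without it, and the change was -1.20 ± 0.16 (edgeR adjusted p = 0.000102) with ADM2 against vehicle. Coq10b, a coenzyme Q-binding protein, rose by 0.73 with ADM2.

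In the tricarboxylic acid cycle and pyruvate entry 0 of 29 genes rose and 3 fell with ADM2, 7 rose and 2 fell with IL-25, 0 rose and 4 fell with both against IL-25, and 2 rose and 4 fell with both against vehicle. These are 10.3%, 31.0%, 13.8% and 20.7% of the list, beside 14.8%, 23.3%, 14.6% and 20.2% of all genes, and across the alternatives 3 to 8 rose with IL-25. With IL-25, 3 rose and 1 fell without vehicle replicate 1 or 3, and with ADM2 1 fell without vehicle replicate 1 or ADM2 replicate 1. Without replicate 2 of IL-25 plus ADM2, 1 fell against IL-25, and 1 rose and 2 fell against vehicle; without its replicate 3, 0 rose and 2 fell against vehicle. Idh3a, an isocitrate dehydrogenase subunit, rose by 0.73 ± 0.11 (edgeR adjusted p = 0.000163) with IL-25, and Suclg2, of succinyl-CoA synthetase, fell by 0.95 with ADM2 (edgeR adjusted p = 0.000917). Carriers and channels of the mitochondrial membranes had 4 of 20 higher and 1 lower with ADM2, 3 and 2 with IL-25, 3 and 0 with both against IL-25, and 3 and 2 with both against vehicle. These shares of 25.0%, 25.0%, 15% and 25.0% stand beside the same 14.8%, 23.3%, 14.6% and 20.2%. For genes with a mean log2 CPM of 4 or more, 24.6%, 38.3%, 24.6% and 32.4% were called. Across the alternatives the higher calls ran from 1 to 4 with ADM2 and from 0 to 3 with both against IL-25. With ADM2, 1 rose without any 1 vehicle library or ADM2 replicate 3, and 2 rose without ADM2 replicate 1. With both against IL-25, 1 rose without IL-25 replicate 2 or replicate 2 of IL-25 plus ADM2, and 0 without its replicate 3. With IL-25, 2 rose and 1 fell without vehicle replicate 1 or 3, as they did with both against vehicle without replicate 3 of IL-25 plus ADM2. Slc25a3, which brings in the phosphate that complex V uses, had 702, 676 and 712 CPM in ADM2, 728 and 795 in IL-25 plus ADM2, 522, 572 and 577 in IL-25, and 513, 569 and 492 in vehicle cultures. Both groups with ADM2 lay above those without it, a rise of 0.41 ± 0.08 (edgeR adjusted p = 0.00335) with ADM2 against vehicle and of 0.45 ± 0.09 (edgeR adjusted p = 0.00368) with both against IL-25, the second lost without replicate 3 of IL-25 plus ADM2. Slc25a24, a carrier of adenine nucleotides, changed by -0.77 with ADM2, -1.23 with IL-25 and -1.62 with both against vehicle, all called.

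**Figure D5:**
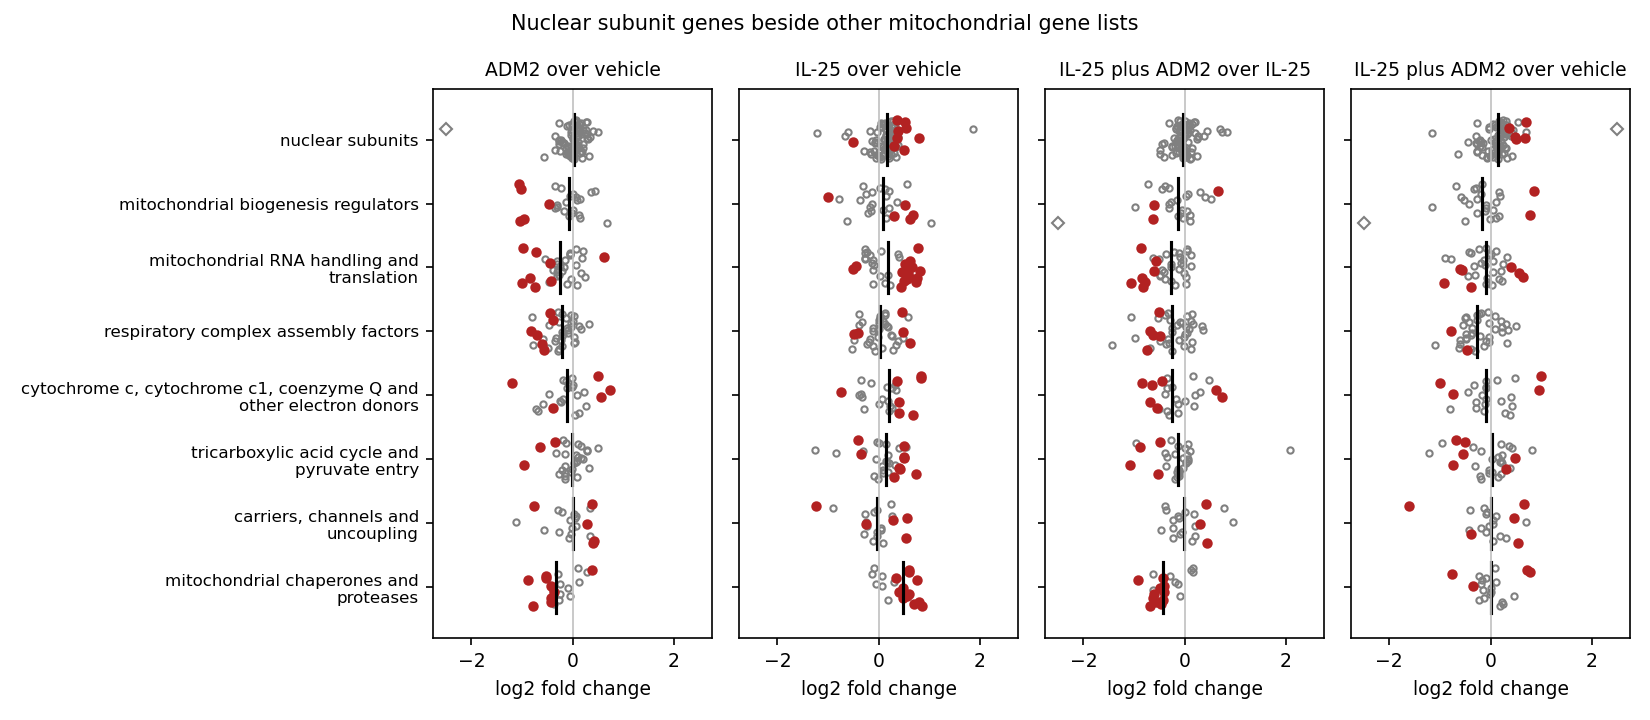
Log2 fold change of the 79 nuclear subunit genes (top row) and of the genes of 7 other mitochondrial lists, in 4 comparisons. Filled red points are genes with an edgeR adjusted p below 0.05, open points the others, black bars the medians, and diamonds genes beyond the axis (Ndufa4l2 and Ppargc1a). The chaperone list has its median at -0.33 with ADM2 and 0.48 with IL-25, and the subunits at 0.03 and 0.17.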

How the data were processed

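The values are raw counts of reads per gene, deposited by the authors as 1 table of 27179 Entrez Gene IDs and 11 libraries of 150 bp paired-end reads. The submitters' processing notes name featureCounts, limma and the build mm10. Aligner, annotation, strand setting and the handling of multiply mapped reads: not given in the sources used here. Without a known strand setting, the levels of overlapping genes are uncertain: 26 of the 79 nuclear subunit genes past the filter overlap another gene, and 19 share 150-base windows with one (GENCODE M21 transcripts). Of the 13 mitochondrial genes, 10 overlap another gene and 7 share such windows. Symbols (25275 IDs matched) and coordinates came from RefSeq GRCm38.p6, exon and transcript lengths from GENCODE M21. Ndufb1 was not in the table. Sdhd, Uqcr11, Cox6a2, Cox7b2, Cox8b, Cox8c, Ndufb4b and Ndufb4c did not pass the filter. With the annotation not given, their low or zero counts cannot be read as absence of the transcripts.

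The quasi-likelihood F test of edgeR 4.0.16 (R 4.3.3) was fitted with 1 mean per group over all 11 libraries, TMM factors and Benjamini-Hochberg adjustment over the 15028 genes that filterByExpr kept (minimum count 10), and was checked on simulated data. In that check each gene was drawn independently, so it does not cover the movement that the subunit genes shared between libraries. The SE, log2 fold change over the root of F, is approximate. CPM are the counts over the TMM-scaled library size. Members and lists were chosen with earlier results of these data known. Named were, in each comparison, the 4 nuclear genes of smallest p among those called in each direction (2 where none was called), core subunits, isoform pairs, the mitochondrial genes, and up to 4 called genes per list; others were chosen after their values were seen. The 21 alternatives used median-ratio or upper-quartile factors, DESeq2 1.42.0, limma voom 3.58.1, other filters, fewer groups, library sizes without mitochondrial counts, a replicate block, each library left out, and, added after the data were seen, an offset from a lowess curve (span 0.3) of each library's deviation on transcript length.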

Additional observations from a re-analysis of the deposited data

How the results depend on the processing

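Of 18 calls of members, 6 held in all 21 alternatives (Uqcrfs1 with IL-25 and with both against vehicle, Atp5b with IL-25, and Ndufaf4 in 3 comparisons), and no call changed sign. Among the calls of the list genes examined in the same way, 58 held in all of them and the others were lost in 1 or more. Nuclear subunit calls, 9 for IL-25 against vehicle, were 5 with upper-quartile factors, 5 with only the groups compared and 14 with the length offset, and 3 to 13 with a library left out: 3 without vehicle replicate 1 or 3 or IL-25 replicate 3, 4 without IL-25 replicate 1, and 5 without ADM2 replicate 3. For IL-25 plus ADM2 against vehicle (5) they were 9 with DESeq2, 9 with no filter, 3 with only the groups compared and 10 with the length offset. With a library left out they were 1 to 12: 1 without replicate 3 of IL-25 plus ADM2, 2 without vehicle replicate 1 or 3, 3 without ADM2 replicate 2 or 3 or IL-25 replicate 3, and 12 without vehicle replicate 2. For ADM2 against vehicle (0) they were 1 with DESeq2, limma voom, no filter and only the groups compared, 5 with the length offset, 3 without vehicle replicate 2 and 1 without IL-25 replicate 1, so 0 to 3 with a library left out. For both against IL-25 (0) they were 1 with upper-quartile factors, DESeq2, limma voom and no filter, 4 with the length offset, and 0 to 1 with a library left out (1 without vehicle replicate 2, IL-25 replicate 1 or 2, or replicate 2 of IL-25 plus ADM2). Mitochondrial calls for IL-25 against vehicle (1) were 0 with upper-quartile factors, no filter, only the groups compared and the length offset, 3 with DESeq2 and a minimum count of 30, 2 with limma voom, and 0 to 4 with a library left out (4 without ADM2 replicate 2). For ADM2 against vehicle (0) they were 1 with only the groups compared and 0 to 1 with a library left out. For both against vehicle (0) they were 1 with DESeq2 and only the groups compared, and 0 to 1 with a library left out (1 without vehicle replicate 2 or IL-25 replicate 1). With the length offset, calls over all genes tested rose in each comparison as well. The nuclear median for both against vehicle was -0.02 without replicate 3 of IL-25 plus ADM2 and 0.28 without replicate 2. A fit without a library also has fewer samples, and the cause of these differences was not tested.

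With a replicate block, 5 nuclear and 0 mitochondrial genes were called for IL-25 against vehicle. The replicate numbers share no stated source, and libraries with the same number did not deviate together over genes (correlations from -0.07 to 0.07). The 2 libraries of IL-25 plus ADM2 limit its comparisons. Well under 100 counts per library (Ndufa4l2, Cox4i2, ATP8, ND4L) set no usable fold change.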

Other observations

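The mitochondrial ribosomal RNA genes lie outside the symbol rule and are named in no comparison above. The small ribosomal RNA, mt-Rnr1, had 310.1, 289.9 and 295 CPM in ADM2, 318 and 362 in IL-25 plus ADM2, 310.4, 248 and 269.7 in IL-25 and 208, 259 and 220.3 in vehicle cultures. Both groups with ADM2 lay above all vehicle libraries. The large ribosomal RNA, mt-Rnr2, had 628, 650.5 and 620.1 CPM in ADM2, 672 and 767 in IL-25 plus ADM2, 749, 616 and 612 in IL-25 and 492, 588 and 539 in vehicle cultures. All treated libraries lay above the vehicle libraries here. Test results for the 2 ribosomal RNA genes are not given. Nor is the share of all genes whose groups lie apart in this way, so the separation cannot be judged against a background. The summed counts of the 13 mitochondrial protein genes were 1.61, 2.19 and 1.77 times those of the nuclear subunit genes in ADM2, 1.82 and 1.62 times in IL-25 plus ADM2, 1.78, 1.83 and 1.58 times in IL-25 and 1.80, 1.54 and 1.87 times in vehicle cultures, with overlap of all groups.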
